A study of Mus musculus with 9 samples.

Results

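The reference condition of the study was the set of mouse plasmacytoid dendritic cells (pDCs) that had been sorted by flow cytometry and given phosphate-buffered saline (PBS), the vehicle. It comprised the 3 RNA sequencing libraries whose titles began with PBS, out of 9 libraries in all. The other libraries, from sorted pDCs given mitochondrial DNA or oxidized mitochondrial DNA, were not used, and no treatment was compared. The labels give cell type and treatment for each library, and the mouse strain, age, tissue of origin, sorting gate, and length of treatment are not given in the sources used here. They also do not say whether the 3 replicates came from separate animals or cultures. Polyadenylated RNA was measured, and a level is given below in TPM, which is the count per kilobase of exon scaled to a sum of 1000000 in each library, so that genes of different length can be set side by side. Triplets of values are always in the order of replicates 1, 2 and 3.

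Plasmacytoid dendritic cells are round cells, plasma cell-like in shape, of the dendritic lineage that release large amounts of type I interferon when endosomal Toll-like receptors meet viral or self nucleic acid. Their identity is held by the E protein Tcf4 (E2-2), which works against the inhibitor Id2 that favours conventional dendritic cells. They carry Toll-like receptors 7 and 9 in endosomes, where the carrier Unc93b1 delivers them and cathepsins trim them, and the adaptor Myd88 links them to the interferon factor Irf7.

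Total counts were 20999081, 18989748 and 25378884. A gene was called detected when its level was at least 1 TPM in all 3 libraries. This held for 12682 of the 57126 genes in the table (22.2%) and for 9565 of 21732 nuclear protein-coding genes (44%), and both shares are the background for the counts of list members below. Replicates 1 and 2 resembled each other, with a Pearson correlation of log2 TPM of 0.987 over 9166 genes and more than a 2-fold difference in 1.22% of them. Replicate 3 stood apart, with correlations of 0.771 and 0.770 and more than a 2-fold difference in 22.5% and 23.0% of the genes. These correlations are across genes, which are not independent replicates. Xist, the noncoding RNA that silences an X chromosome in females, was at 0, 0.0285 and 77.2 TPM. Genes of the Y chromosome summed to 189, 183 and 0.663 TPM. Replicates 1 and 2 thus had the sex-linked RNA of male cells and replicate 3 that of female cells, so replicate 3 came from other animals. Sex and the other differences of replicate 3 cannot be told apart. Every result is therefore given per library, and the number of members detected is also given without replicate 3 where that changed it, which raised the background to 11024 nuclear protein-coding genes.

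The difference of replicate 3 moved with base composition. The 8790 genes used were nuclear, protein-coding, at least 500 bases long and at 5 TPM or more in replicates 1 and 2. They shared under 50% of their exonic bases with another gene. The log2 ratio of replicate 3 to the mean of replicates 1 and 2 had a Spearman correlation of -0.554 with transcript GC content. The ratio of replicate 2 to replicate 1 had one of 0.015. With exon length the ratio of replicate 3 had a correlation of -0.277, and GC content and length were not separated. The median log2 ratio of replicate 3 went from 0.35 in the 410 genes under 40% GC to -2.25 in the 1759 genes of 55 to 60% GC and -5.57 in the 357 genes of 60% GC or more. Levels in replicate 3 were more than 4-fold below the mean of the others for 1935 genes. They included 437 of the 2333 genes of 50 to 55% GC, 940 of the 1759 genes of 55 to 60% GC and 303 of the 357 of 60% GC or more. The share was smaller at lower GC, down to 10 of the 410 genes under 40% GC. GC-rich genes short of the 4-fold limit varied. Coro1a (58.0% GC) had a log2 ratio of -1.97, and Rps15, a ribosomal protein gene of 62.4% GC, had one of 0.58. The part of base composition in any single gene's level was not tested, and the GC content is given below beside several genes that were low in replicate 3 and several that were not.

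Base composition differs between key pDC genes, as the GC-richest 120-base stretch of 5 coding sequences shows (mouse transcripts of GENCODE M21, build GRCm38, sense strand, with each CG dinucleotide in capitals). They were chosen with their levels known. The transcription factor Irf8 and the DNA receptor Tlr9 were far lower in replicate 3, and the RNA receptor Tlr7, the lectin Siglech and the tether Bst2 were not.
Irf8: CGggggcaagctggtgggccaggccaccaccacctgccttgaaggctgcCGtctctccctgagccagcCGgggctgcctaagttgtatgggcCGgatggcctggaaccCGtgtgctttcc
Tlr9: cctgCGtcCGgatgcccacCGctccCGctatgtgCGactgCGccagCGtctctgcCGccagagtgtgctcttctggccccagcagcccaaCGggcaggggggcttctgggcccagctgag
Tlr7: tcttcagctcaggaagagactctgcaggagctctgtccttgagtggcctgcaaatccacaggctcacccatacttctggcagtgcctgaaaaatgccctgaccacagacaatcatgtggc
Siglech: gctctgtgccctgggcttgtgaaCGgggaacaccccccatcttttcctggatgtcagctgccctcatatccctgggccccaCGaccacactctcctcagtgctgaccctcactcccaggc
Bst2: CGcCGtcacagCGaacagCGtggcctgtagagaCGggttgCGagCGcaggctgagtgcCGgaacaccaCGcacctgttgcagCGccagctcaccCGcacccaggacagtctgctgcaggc
The Irf8 stretch, bases 633 to 752 of the coding sequence, was 67.5% GC with 5 CG dinucleotides. That of Tlr9, bases 2910 to 3029, was 70.8% GC with 9, and that of Tlr7, bases 3003 to 3122, was 53.3% GC with none. Siglech, at bases 506 to 625, lay between them with 62.5% GC and 2 CG dinucleotides. Bst2, at bases 147 to 266, had 67.5% GC and 11 CG dinucleotides, as GC-rich as the stretch of Irf8. The whole transcripts of Bst2 and Irf8 were also alike, with 55.3% and 55.1% GC, while their log2 ratios of replicate 3 to the others were 0.29 and -3.07. This is 1 pair picked with its values known, and the part of base composition in its ratios was not tested. Over the whole coding sequence CG dinucleotides numbered 4.48 per 100 bases in Irf8, 4.07 in Bst2, 3.33 in Tlr9, 1.37 in Siglech and 0.889 in Tlr7. The sequences describe the genes, and no motif or site is claimed in them.

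**Figure D1:**
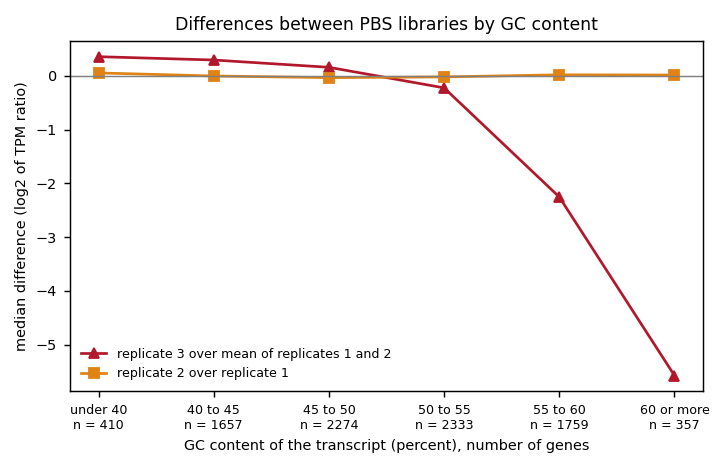
Median log2 ratio of TPM between PBS libraries (vertical axis) by GC content of the transcript (horizontal axis, percent), for nuclear protein-coding genes at 5 TPM or more in replicates 1 and 2. Replicate 3 over the mean of the other libraries runs from 0.35 to -5.57, and replicate 2 over replicate 1 stays near 0 in every class.

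Translation and iron storage genes led the nuclear protein-coding genes, together with genes of the lysosome, the cytoskeleton and antigen presentation. Eef1a1, the elongation factor that brings aminoacyl-tRNA to the ribosome, was at 7051, 6158 and 10927 TPM. Ftl1, the ferritin light chain, was at 8279, 9028 and 6186 TPM. Psap, the precursor of the lysosomal saposins, was at 6946, 7824 and 4936 TPM and so lay beside these genes. Actb (beta-actin) was at 3969, 4855 and 4218 TPM and Cd74, the invariant chain of MHC class II, at 3728, 4438 and 1936 TPM. The other genes among the 20 with the highest mean TPM were 8 ribosomal protein genes (among them Rplp1, Rpl13a, Rplp0, Rps3a1, Rpl10 and Rps4x), B2m, Bst2, Tyrobp, Gm45713, Mpeg1, Ly6d and Fth1. Genes of the pDC surface and of myeloid signalling thus stood at the level of ribosomal proteins: Bst2 was at 2106, 2904 and 3069 TPM, the signalling adaptor Tyrobp (DAP12) at 2084, 2695 and 2789 TPM and the lipid-anchored Ly6d at 2215, 2506 and 2558 TPM. Mpeg1, which encodes the pore-forming perforin-2 of phagocytes, was at 2072, 2616 and 2649 TPM. All exonic bases of Gm45713 overlap another gene, so its level is uncertain.

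Ribosomal protein genes were 53 of the 100 nuclear protein-coding genes with the highest mean TPM. They took 4.75%, 4.32% and 8.95% of all counts, and mitochondrially encoded genes took 1.69%, 1.52% and 3.18%, so both were higher in replicate 3. The 10 nuclear protein-coding genes of highest mean held 6.60%, 6.85% and 7.18% of the TPM of that class, the first 100 held 25.27%, 25.003% and 33.3%, and the first 1000 held 56.7%, 57.0% and 66.2%. RNA was thus more concentrated in few genes in replicate 3. Of the mitochondrial messages, mt-Co1, a subunit of cytochrome c oxidase, was at 8632, 7675 and 14551 TPM. The 6 next (mt-Cytb, mt-Nd1, mt-Nd6, mt-Nd5, mt-Nd4 and mt-Nd2) lay between 1351 and 6565 TPM. The remaining 6, among them mt-Co2 at 26.1, 21.5 and 37.4 TPM and mt-Co3 at 17.7, 16.8 and 28.5 TPM, were at 2.36 to 53.9 TPM. Fragments that aligned to several places were not counted, so mitochondrial genes with close copies in the nuclear genome are uncertain.

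Over all genes, the 10 with the highest mean held 13.8%, 13.6% and 16.03% of the TPM, and several of them were very short entries. The 5 nuclear genes outside the protein-coding class with the highest mean were Mir5121 at 27758, 24408 and 45959.5 TPM, Mir5107 at 18118, 21460.4 and 9534 TPM, Gm26377 at 11150.4, 10839 and 18695 TPM and 2 genes with no symbol. They are 74 to 109 bases long, and 3 of them lie wholly within the exons of another gene. A fragment over 2 genes was counted for both, so such entries can carry counts of a host message divided by a very small length. Genes under 200 bases took 22.6%, 22.1% and 22.3% of the TPM. Levels of other genes are lowered by a similar factor in each library: on the scale of nuclear protein-coding genes alone they are higher by 1.51, 1.49 and 1.51 times.

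**Figure D2:**
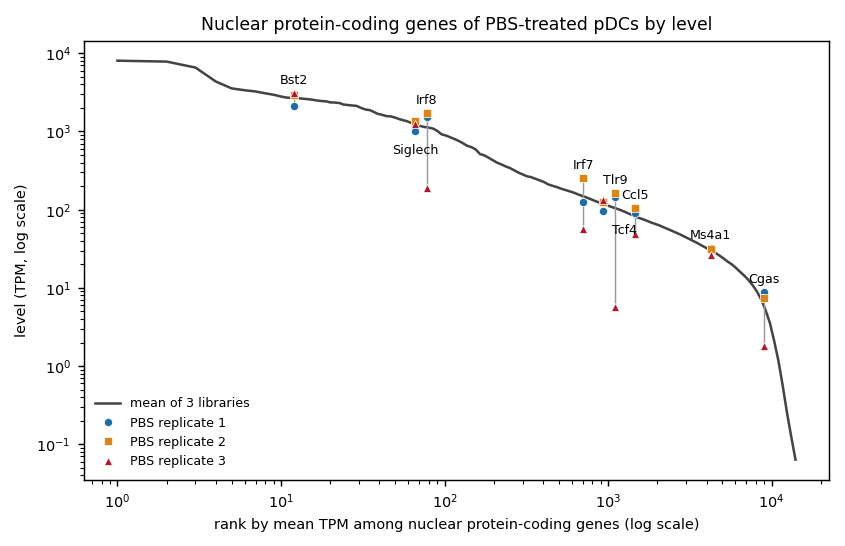
Mean TPM of nuclear protein-coding genes (vertical axis, log scale) against their rank (horizontal axis, log scale), with the level of 9 genes in each PBS library as points joined by a grey line. Bst2, Siglech and Tcf4 lie close together in the 3 libraries, while Tlr9 runs from 5.64 to 162 TPM.

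The 3 markers used to check the labelled cell type were present in every library. Siglech (chromosome 7, 55417932 to 55428581, plus strand, build GRCm39), a sialic acid-binding lectin that signals through Tyrobp, was at 1025, 1363 and 1259 TPM, a mean of 1216 ± 173 TPM (SD, n = 3), which ranked 66 among nuclear protein-coding genes. Bst2 (chromosome 8, 71986899 to 71990100, minus strand), the membrane tether known as PDCA-1 on mouse pDCs, had a mean of 2693 ± 515 TPM (SD, n = 3) and rank 12. Tcf4 (chromosome 18, 69477217 to 69822150, plus strand) was at 97.5, 125 and 132 TPM, a mean of 118 ± 18.2 TPM (SD, n = 3) and rank 928. None of the 3 was low in replicate 3. In bulk RNA, fewer cells of a type and less RNA per cell cannot be told apart, which applies to every level here.

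Of 31 surface and effector markers of pDCs, 30 were detected, and all 31 were without replicate 3. Their median level was 103, 122 and 131 TPM, against 25.7, 26.0 and 18.8 TPM for detected nuclear protein-coding genes. Plac8, a small cysteine-rich protein abundant in pDCs, was at 1074, 1275 and 1832 TPM. Ly6a (Sca-1) was at 1095, 2053 and 983 TPM and stood out in replicate 2. Ly6c2, the Ly6C antigen, was at 773, 953 and 973 TPM. Cox6a2, a cytochrome c oxidase subunit better known from heart and muscle, was at 513, 465 and 572 TPM, with the 3 libraries close together. Rnase6, a secreted ribonuclease, was at 277, 372 and 468 TPM and Cd300c, an activating receptor, at 357, 466 and 399 TPM. Ccr9, the gut and thymus homing receptor of pDCs, was at 218, 451 and 408 TPM and was low in replicate 1. Replicate 3 was more than 2-fold below both other libraries for 4 markers, Ptprf, Pacsin1, Lag3 and Ptprcap, the last with exons that all overlap another gene. Ptprf, a receptor phosphatase of 58.1% GC, was at 18.1, 23.99 and 0.412 TPM. Pacsin1, an endocytic adaptor (57.4% GC), was at 85.7, 111 and 1.93 TPM, and the inhibitory receptor Lag3 (59.9% GC) at 57.9, 94.5 and 2.35 TPM. Among the T cell coreceptors that mouse pDCs can carry, Cd4 was at 5.37, 12.1 and 11.1 TPM and Cd8a at 7.72, 8.09 and 8.79 TPM.

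Transcription factors of the pDC lineage were detected in 15 of 16 cases, and in 16 without replicate 3. Irf8 (chromosome 8, 121463097 to 121483433, plus strand), which pDCs and type 1 conventional dendritic cells share, was at 1530.2, 1699 and 192 TPM. It was the highest factor of the list in replicates 1 and 2, and Spib, the Ets factor that works with Tcf4, was the highest in replicate 3. Spib was at 535, 754 and 206 TPM, Runx2 at 288, 339 and 40.7 TPM and Irf7, the main activator of interferon alpha genes, at 127, 257 and 57.2 TPM. Replicate 3 was more than 2-fold below both other libraries for 9 of the 16 factors and more than 2-fold above both for none. These numbers were 476 and 4 among 2496 background genes. The background genes were nuclear, protein-coding and at least 500 bases long, with under 50% exonic overlap and a mean of at least 50 TPM. The drop was thus also seen outside the list, but in a smaller share of genes. The 16 factors were not held to these limits, and the cause was not tested. Log2 ratios of replicate 3 to the mean of the others were -3.07 for Irf8 (55.1% GC), -2.94 for Runx2 (50.3% GC), -4.09 for Spi1 (58.9% GC) and -5.62 for Cbfa2t3 (55.8% GC), a cofactor of Tcf4. The E protein Tcf3 (E2A, 60.98% GC) was at 105, 97.2 and 0.281 TPM, so it was the factor that went undetected in replicate 3. Spi1 (PU.1), a factor of all myeloid cells, was at 163, 133 and 8.61 TPM. Factors with similar levels in the 3 libraries were Tcf4, Ikzf1 at 111, 110.1 and 94.2 TPM, Mef2c at 99.9, 89.8 and 125 TPM, Tcf12 at 60.1, 66.6 and 65.9 TPM and Zeb2 at 55.4, 37.5 and 50.7 TPM.

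Factors of other dendritic lineages were lower. Of 10, 7 were detected, and 9 without replicate 3, with medians of 19.4, 15.3 and 3.22 TPM against 102, 108 and 54.0 TPM for the pDC factors. Id2, the inhibitor that favours conventional dendritic cells, was at 16.3, 13.5 and 21.98 TPM, below Tcf4 in every library. Batf3, needed for type 1 conventional dendritic cells, was at 4.90, 3.45 and 2.73 TPM, and Zbtb46, a factor of the conventional lineage, at 2.99, 1.66 and 1.58 TPM. Tbx21 (T-bet) was under 1 TPM in all 3. Relb, the NF-kB subunit of mature dendritic cells (61.1% GC), was at 61.9, 49.7 and 0.757 TPM, and Irf4 at 30.8, 31.1 and 34.6 TPM.

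**Figure D3:**
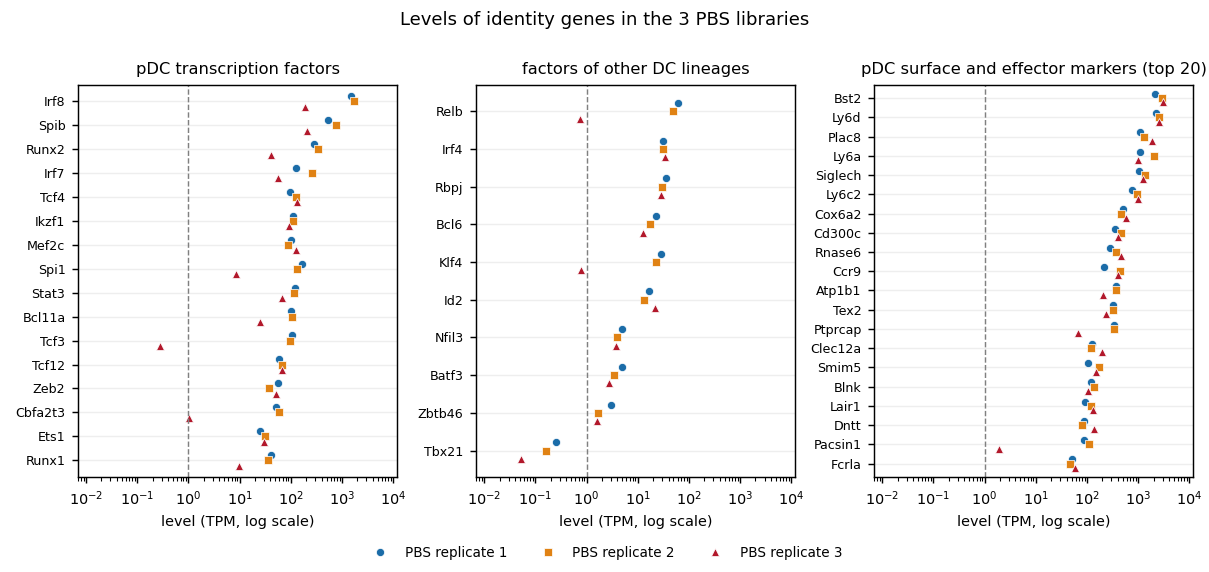
Levels (TPM, log scale) of 16 pDC transcription factors, 10 factors of other dendritic cell (DC) lineages and the 20 pDC surface and effector markers of highest mean, with 1 symbol for each PBS library and a dashed line at 1 TPM. Triangles of replicate 3 fall to the left for Irf8, Runx2, Spi1, Tcf3, Relb and Pacsin1 and lie with the other libraries for Tcf4, Bst2 and Siglech.

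Endosomal Toll-like receptors were represented by 3 of 7 members. Tlr7 (chromosome X, 166087925 to 166113554, minus strand), the receptor for single-stranded RNA, was at 105, 152 and 137 TPM. Tlr9 (chromosome 9, 106099797 to 106104082, plus strand), the receptor for unmethylated CpG DNA, was at 144, 162 and 5.64 TPM. Tlr9 lay above Tlr7 in replicates 1 and 2 and far below it in replicate 3, where its log2 ratio to the other libraries was -4.74. The mean level of Tlr9 over the 3 libraries, 104 ± 85.8 TPM (SD, n = 3), thus rests on replicates 1 and 2. Tlr12, a receptor for profilin of parasites, was at 26.9, 36.3 and 9.09 TPM. Its partner Tlr11 was at 0.724, 1.09 and 1.06 TPM and Tlr13, a receptor for bacterial ribosomal RNA, at 0.741, 0.629 and 1.09 TPM. Tlr3 and Tlr8 were under 1 TPM in every library. Among the surface receptors and their helpers, 5 of 7 were detected at low levels (6 without replicate 3), led by Tlr2 at 15.6, 13.3 and 18.2 TPM, while Tlr4, the endotoxin receptor, was at 1.12, 1.05 and 0.659 TPM and Tlr5, the flagellin receptor, at 0.102, 0.091 and 0.043 TPM.

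The machinery that serves endosomal receptors was abundant, with 26 of 28 trafficking and signalling genes detected and 27 without replicate 3. Unc93b1, the chaperone that carries the receptors out of the endoplasmic reticulum, was at 788, 972 and 152 TPM (57.3% GC). The proteases Ctss, Ctsb and Ctsl, cathepsins of the endosome, were at 725, 943 and 1059 TPM, 739, 848 and 952 TPM and 228, 340.02 and 415 TPM. Hsp90b1 (gp96), a chaperone of Toll-like receptors, was at 734, 712 and 960.5 TPM, and its partner Cnpy3 was at 151, 147 and 37.4 TPM. Slc15a4, the lysosomal transporter through which Tasl recruits Irf5, was at 158, 194 and 17.1 TPM (55.8% GC), and Tasl was lower, at 22.9, 26.5 and 29.96 TPM. Irf5 was at 116, 120.4 and 31.2 TPM. The adaptor Myd88 was at 88.2, 102 and 128 TPM, close in the 3 libraries, and the kinase Irak1, which follows it, at 79.1, 83.6 and 3.86 TPM. Ticam1 (TRIF), the adaptor of Tlr3, and Irak3 were the members that missed detection, at 16.98, 15.99 and 0.559 TPM and 1.56, 0.603 and 1.18 TPM.

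Nucleases that digest RNA and DNA in endosomes were all detected (7 of 7). Pld4 (chromosome 12, 112727089 to 112735424, plus strand), an exonuclease that trims the ligands of Tlr9, was at 441, 649 and 395 TPM, far above its relative Pld3 at 28.00, 30.1 and 3.01 TPM. Dnase2a, the lysosomal DNase, was at 59.9, 76.2 and 4.34 TPM and Dnase1l3, a secreted DNase, at 8.94, 12.3 and 3.42 TPM.

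Cytosolic nucleic acid sensing was covered by 23 of 24 members, the same number without replicate 3. Trex1, the exonuclease that clears cytosolic DNA, was the most abundant by mean, at 230.4, 270.2 and 255 TPM (57.8% GC, with no drop in replicate 3), and the adaptor Sting1 was at 167, 158 and 279 TPM. Cgas, the enzyme that makes the messenger for Sting1, was much lower, at 8.74, 7.39 and 1.83 TPM (45.9% GC). Samhd1, which depletes nucleotides, was at 135, 209 and 127 TPM. The interferon-inducible p200 genes Ifi203, Ifi209 and Ifi207 were at 83.6, 145 and 87.6 TPM, 94.8, 123 and 76.2 TPM and 56.3, 94.6 and 39.6 TPM. They were highest in replicate 2, as were 14 of the 24 members. Which library was highest was not counted over all genes, so this number and those of later lists have no background. Among RNA sensors, Dhx58 (LGP2) was at 41.8, 74.97 and 20.5 TPM, Rigi at 7.51, 8.58 and 5.53 TPM, Ifih1 (MDA5) at 9.81, 9.16 and 5.52 TPM and their adaptor Mavs at 22.9, 21.7 and 18.003 TPM. Ifi208 was the member under 1 TPM in every library. The interferon-inducible genes of this family are near copies of each other, so the split of counts among them is uncertain.

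Of 10 inflammasome genes, 8 were detected, led by Casp1 at 52.3, 55.6 and 62.5 TPM. The adaptor Pycard (ASC) was at 25.6, 31.8 and 57.5 TPM, the pore-forming Gsdmd at 34.8, 54.6 and 33.4 TPM and the DNA receptor Aim2, counted with the cytosolic sensors, at 35.9, 45.98 and 50.4 TPM. Nlrp3 was at 11.3, 10.1 and 4.22 TPM. The substrates of caspase 1 were low, with Il18 at 2.12, 5.45 and 4.56 TPM and Il1b at 7.13, 0.528 and 2.61 TPM.

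Cytokine receptors were detected in 25 of 28 cases, and in 27 without replicate 3. Both chains of the type I interferon receptor were abundant, with Ifnar2 at 342, 339 and 395 TPM and Ifnar1 at 180.1, 199 and 173 TPM. Flt3, the receptor of the growth factor on which pDCs depend, was at 239, 221 and 339.7 TPM. Csf2rb, the common beta chain gene of the receptors for interleukin 3, interleukin 5 and GM-CSF, and its relative Csf2rb2 split by library. Csf2rb2 was at 338, 356 and 13.1 TPM and Csf2rb at 198, 194 and 5.44 TPM, both low in replicate 3. Their transcripts are 53.3% and 53.9% GC. These genes are near copies, so their counts are uncertain. Il3ra (CD123), the alpha chain that marks human pDCs, was at 14.8, 15.9 and 0.202 TPM (60.7% GC). Il7r, the interleukin 7 receptor of lymphoid cells, was at 111, 126 and 164 TPM and Tnfrsf13b (TACI), a receptor of the B cell factors BAFF and APRIL, at 108, 141 and 184 TPM. Il2rg, the common gamma chain, was at 119, 178 and 122 TPM, and Tnfrsf17 (BCMA) was under 1 TPM in all libraries.

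Chemokine and lipid receptors were uneven, with few high members: 17 of 26 were detected, and 19 without replicate 3. After Ccr9, the highest by mean were Ccr2, the receptor for monocyte chemoattractants, at 164, 187 and 373 TPM, and Cxcr4, the receptor that retains cells in bone marrow, at 215, 173 and 226 TPM. Ccr2 was highest in replicate 3. S1pr4, a sphingosine phosphate receptor, was at 93.4, 108 and 1.75 TPM. Cxcr3 was at 21.8, 34.3 and 45.2 TPM and the lymph node receptor Ccr7 at 34.8, 25.7 and 28.6 TPM. Ccr8 had no count in any library, where 3 counts would be 0.164 to 0.261 TPM, a limit that covers counting error only. Xcr1, which marks type 1 conventional dendritic cells, was under 1 TPM in all 3.

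Of 34 immunoreceptors and adaptors, 26 were detected, and 27 without replicate 3. Besides Tyrobp, the adaptor Fcer1g (the Fc receptor gamma chain) was at 399.5, 502 and 627 TPM. Clec12a was at 128, 122 and 199 TPM, the inhibitory receptors Pirb and Lair1 at 89.5, 155 and 114 TPM and 90.5, 118 and 131 TPM, and Clec9a, a receptor for dead cells, at 22.2, 38.5 and 55.6 TPM. The activating Fc receptors for IgG, Fcgr1 and Fcgr4, and the macrophage lectin Siglec1 were under 1 TPM in each library. Adhesion genes were detected in 17 of 17 cases. Selplg, the ligand of P-selectin, was at 768, 773 and 940.5 TPM, and the integrin chains Itgb2, Itgax (CD11c) and Itgal were at 143, 173 and 181 TPM, 142, 151 and 186 TPM and 119.5, 144 and 94.9 TPM. Itgb7, which pairs with alpha 4 for gut homing, was at 214, 204 and 14.3 TPM. Among the genes with a mean of at least 50 TPM and the largest ratios of replicate 3 to the others was Cnn3, the actin-binding calponin 3, at 44.1, 45.8 and 124 TPM. The 3 largest ratios belonged to entries of 68 to 126 bases with no symbol, at 0 TPM in replicates 1 and 2. All 3 lie within Xist and so repeat the difference in Xist given above.

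**Figure D4:**
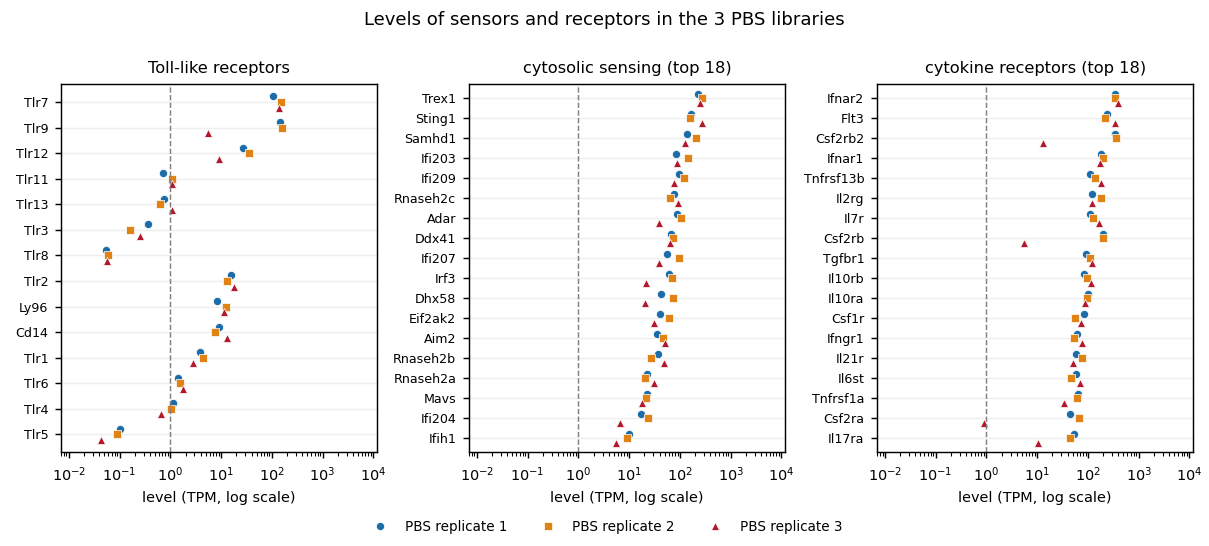
Levels (TPM, log scale) of 14 Toll-like receptor genes and helpers, the 18 cytosolic nucleic acid sensing genes and the 18 cytokine receptors of highest mean, with 1 symbol for each PBS library and a dashed line at 1 TPM. Tlr7, Trex1 and Ifnar2 lie close together in the 3 libraries, and Tlr9, Csf2rb2, Csf2rb and Csf2ra are far lower in replicate 3.

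Antigen presentation genes were expressed throughout, with 13 of 13 members of class I and 12 of 12 of class II detected. The class I heavy chains H2-K1 and H2-D1 were at 1329, 1608 and 598 TPM and 991, 1083 and 136 TPM. They belong to a family of near copies, so their counts are uncertain. B2m, the light chain, was at 2771, 3560.2 and 2529 TPM. The peptide loading genes Tapbp (57.1% GC) and Tap1 (57.3% GC) were at 395, 605 and 4.44 TPM and 206, 209.5 and 5.71 TPM, whereas the immunoproteasome subunit Psmb8 was at 261, 285 and 366 TPM. The class II chains H2-Aa, H2-Ab1 and H2-Eb1 were at 1469, 1852 and 1406 TPM, 1444, 1671 and 945 TPM and 621, 722 and 551 TPM. Their activator Ciita (55.2% GC) was at 42.8, 45.9 and 1.38 TPM, low in replicate 3, where these class II chains were at 551 to 1406 TPM. Marchf1, the ligase that turns class II over, was at 22.8, 23.9 and 34.8 TPM.

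Costimulatory genes were low beside these. Of 13, 9 were detected (10 without replicate 3), with medians of 9.29, 9.93 and 4.96 TPM. Icosl, the ligand of ICOS on helper T cells, was at 31.96, 38.8 and 23.3 TPM. Cd40 was at 18.4, 16.1 and 6.74 TPM, Cd86 at 11.6, 13.4 and 9.58 TPM, Cd80 at 2.19, 2.26 and 1.63 TPM and the inhibitory ligand Cd274 (PD-L1) at 9.29, 9.93 and 4.96 TPM. Tnfsf9 (4-1BB ligand) was at 13.2, 11.2 and 11.5 TPM.

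No interferon gene was detected. All 21 listed members were under 1 TPM in every library, and 14 had no count in any, among them Ifna4, Ifna1 and Ifna2. Their counts summed to 7, 13 and 16. Ifnb1 was at 0.122, 0 and 0 TPM and Ifng, the type II interferon, at 0.227, 0.762 and 0.426 TPM. For the members without a count, 3 counts would be 0.182 to 0.547 TPM. Interferon alpha genes are near copies, and fragments that aligned to several of them were not counted, so low interferon alpha RNA could have been missed.

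Other secreted proteins were few but included high members. Among 36 chemokine genes, 13 were detected (14 without replicate 3) and 18 were under 1 TPM in every library. Ccl5, a chemokine that draws T cells, was at 91.7, 105 and 49.1 TPM, and Ccl22, a ligand of Ccr4 on regulatory T cells, was at 46.8, 53.9 and 48.4 TPM. Ccl3 was at 16.6, 18.8 and 18.4 TPM, Ccl4 at 8.98, 6.35 and 5.26 TPM, Cxcl16 at 18.9, 17.3 and 9.03 TPM and the interferon-inducible Cxcl10 at 23.9, 5.31 and 4.87 TPM, with replicate 1 the high one. Of 37 interleukin and TNF family genes, 8 were detected (10 without replicate 3). Il16 was at 61.4, 51.7 and 62.3 TPM, Ltb (lymphotoxin beta) at 69.3, 48.2 and 8.58 TPM and Tnf at 12.8, 7.86 and 2.90 TPM. The interleukin 12 subunits were unequal, with Il12a (p35) at 27.8, 27.9 and 47.8 TPM, its other partner Ebi3 at 30.3, 26.2 and 10.4 TPM and Il12b (p40) at 0.835, 0.676 and 0.294 TPM. Il6 was at 0.225, 0.126 and 0.424 TPM and Tnfsf13b (BAFF) at 0.0574, 0 and 0.027 TPM. Il4, Il5, Il13, Il17a, Il21 and Il22 had no count in any library, where 3 counts would be at most 0.572 TPM for the members of that list without a count.

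Growth factors were detected in 8 of 22 cases and in 12 without replicate 3. Grn (progranulin), a secreted protein whose granulin fragments help deliver CpG DNA to Tlr9, was at 1339.8, 1695 and 538 TPM, and the cytokine Mif at 178, 154 and 198 TPM. Tgfb1 was at 278, 232 and 1.66 TPM (62.5% GC) and Vegfb at 38.1, 47.6 and 1.56 TPM, both nearly missing from replicate 3. Extracellular defence and carrier proteins included Lgals1 (galectin 1) at 1084, 1116 and 2004 TPM, the protease inhibitor Cst3 (cystatin C, 57.2% GC) at 857, 776 and 1436 TPM, Lgals3 (galectin 3) at 628, 794 and 119.7 TPM and Cfp (properdin) at 191, 189 and 99.5 TPM. Of that list, 18 of 33 members were detected, and 19 without replicate 3. Gzmb, the granzyme known from human pDCs, was at 0.318, 0 and 0.224 TPM.

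Genes of the endoplasmic reticulum and the unfolded protein response were detected in 30 of 30 cases. Xbp1, the factor that expands the secretory apparatus, was at 622, 845 and 573 TPM. The chaperones Calr, Hspa5 (BiP) and Pdia3 were at 764, 678 and 585 TPM, 366, 341 and 399.8 TPM and 387, 336 and 376 TPM, and the translocon subunit Sec61b was at 304, 286 and 387 TPM. Ern1 (IRE1 alpha), the sensor that splices Xbp1, was at 50.8, 58.1 and 19.4 TPM. Medians of the list were 123, 111 and 146 TPM.

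Interferon-stimulated genes were present in PBS-treated cells, with 29 of 32 detected and 30 without replicate 3. Ly6e was at 1625, 1970.4 and 1456 TPM, Ifi27l2a at 206, 499 and 234 TPM, Trim30a at 237, 395 and 218 TPM and Isg15, a ubiquitin-like protein, at 83.4, 129.6 and 40.6 TPM. Replicate 2 was the highest library for 22 of the 32, replicate 1 for 8 and replicate 3 for 2, with no such count over all genes to set beside them. Oas2 and Oas3, which make the messenger that activates RNase L, showed the spread at low levels, at 2.14, 8.20 and 1.10 TPM and 6.73, 16.4 and 0.477 TPM. Medians were 27.9, 37.9 and 13.2 TPM.

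Immediate-early genes, transcription factors and regulators that are switched on within minutes of stimulation or handling, had 10 of 22 members detected but 20 without replicate 3. Their medians were 18.4, 14.9 and 0.858 TPM, and replicate 3 was more than 2-fold below both other libraries for 19 of the 22. This held for 476 of the 2496 background genes described with the pDC factors, a smaller share. Those genes had a mean of at least 50 TPM, and the medians of this list were below that level, so the sets are not alike. Btg2 was at 104, 127 and 138 TPM and Klf6 at 48.5, 47.3 and 55.3 TPM, without a drop in replicate 3. Junb (62.6% GC) was at 85.5, 62.1 and 0.249 TPM, Ier5 (52.3% GC) at 107, 112 and 0.923 TPM and Klf2 at 69.4, 78.2 and 1.11 TPM. Fos was low in every library, at 7.66, 4.12 and 0.794 TPM. Jund was at 179, 146 and 0.0772 TPM, with 50% or more of its exonic bases shared with another gene.

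BCL2 family genes were detected in 12 of 14 cases and in 14 without replicate 3. The effectors Bax and Bak1 were at 303, 288 and 228 TPM and 81.3, 83.2 and 29.6 TPM and the survival protein Mcl1 at 209.7, 210.2 and 17.96 TPM. Bcl2, another survival protein, was lower, at 15.6, 10.9 and 14.8 TPM. Bbc3 (PUMA, 65.2% GC) was at 85.3, 64.2 and 0.284 TPM and Pmaip1 (NOXA) at 54.6, 50.2 and 63.9 TPM.

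V(D)J recombination assembles antigen receptor genes in lymphocytes, and part of the mouse pDCs is known to carry traces of it. All 12 members of that list, immunoglobulin genes included, were detected. Dntt, the terminal transferase, was at 86.7, 81.2 and 135 TPM, Rag1 at 4.07, 10.1 and 6.19 TPM and Rag2 at 1.55, 2.54 and 3.38 TPM. Ighm, the heavy chain of IgM, was at 2443, 2676 and 2982 TPM, similar in the 3 libraries. The surrogate light chain genes Igll1 and Vpreb1 were at 2.10, 2.58 and 2.14 TPM and 1.79, 2.27 and 1.09 TPM.

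Traces of other cell types were read from 14 lists of markers. Immunoglobulin genes, which plasma cells express strongly, had the highest levels: Igkc, the kappa light chain, was at 3698, 1803 and 2622 TPM, Igha (IgA) at 1260.5, 458 and 709.9 TPM, Jchain at 414, 193 and 298 TPM and Ighg2c (IgG2c) at 93.8, 22.7 and 57.3 TPM. For each of these replicate 1 was the highest and replicate 2 the lowest. The order was not shared by all immunoglobulin genes. At a mean of 1 TPM or more it held for 5 of 11 constant genes and 89 of 180 variable genes. Among the constant genes, replicate 1 was the highest library for 5, replicate 3 for 5, among them Ighm and Iglc1 at 317, 249.7 and 332 TPM, and replicate 2 for Ighd, at 102, 111 and 82.4 TPM. All immunoglobulin genes together took 0.717%, 0.486% and 0.720% of the counts. Of the other plasma cell markers, Sdc1 was at 36.7, 32.02 and 1.51 TPM, Prdm1 at 3.87, 2.06 and 2.01 TPM and Tnfrsf17 under 1 TPM, while Xbp1 and Jchain are also known in pDCs and Igkc in B cells. The cells that held the immunoglobulin RNA were not tested.

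B cell markers were detected in 11 of 12 cases, with or without replicate 3. Cd79a and Cd79b, the signalling chains of the B cell receptor, were at 109, 106 and 74.1 TPM and 101, 117 and 121 TPM, Ms4a1 (CD20) at 32.6, 31.8 and 26.03 TPM and the B lineage factor Pax5 at 13.2, 14.7 and 1.28 TPM. Summed over the list, levels were 4147, 2290 and 2963 TPM, most of it Igkc. Whether B cells or pDCs held this RNA was not tested.

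Conventional dendritic cell lists gave 7 of 10 detected members for each type, and 9 for type 2 without replicate 3. Cd7 was at 545, 564 and 914 TPM and Snx22 at 109, 95.6 and 151 TPM. Sirpa was at 77.6, 83.8 and 61.7 TPM and Wdfy4 at 82.6, 77.1 and 5.66 TPM. The type 2 list summed to 704, 718 and 1035 TPM, most of it Cd7. Whether conventional dendritic cells or pDCs held this RNA was not tested. Xcr1 and Tlr3, which mark the first type, were at 0.942, 0.528 and 0.592 TPM and 0.366, 0.159 and 0.258 TPM, against the higher level of Clec9a given above. For the second type Mgl2 was at 0.632, 0.413 and 0.78 TPM and Cd209a at 8.25, 7.79 and 24.01 TPM. Of 14 monocyte and macrophage markers 5 were detected (6 without replicate 3): Ms4a6c at 69.96, 103 and 149.97 TPM, Csf1r at 85.7, 55.01 and 74.05 TPM, Lyz2 at 99.8, 33.6 and 52.2 TPM, Adgre1 (F4/80) at 11.9, 8.90 and 9.50 TPM and Cd14 at 8.95, 7.47 and 12.9 TPM. Mertk, Mrc1 and Vcan were under 1 TPM in every library, and C1qb was at 4.19, 0.846 and 0.946 TPM.

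Lymphocyte lists other than B cells were near the floor apart from a few members. Among 12 NK cell and innate lymphoid markers 3 were detected (4 without replicate 3): Klrd1 (CD94) at 125, 185 and 321 TPM, Klrk1 (NKG2D) at 28.1, 31.6 and 35.7 TPM and Ccl5. Ncr1, Nkg7, Eomes, Prf1 and Gzma were under 1 TPM in every library, so these defining NK genes were near 0 where Klrd1 was high. Of 12 T cell markers 4 were detected, the signalling genes Lat at 7.33, 15.5 and 6.77 TPM and Cd247 at 9.25, 9.04 and 5.48 TPM, the receptor Cd5 at 6.66, 4.78 and 5.25 TPM and Trac, a T cell receptor constant gene, at 2.43, 2.72 and 3.74 TPM. Summed over the list, levels were 27.9, 36.3 and 26.04 TPM, most of it from Lat, Cd247 and Cd5. The CD3 chains Cd3d, Cd3e and Cd3g were at 0.226, 0.126 and 0.0398 TPM, 0, 0 and 1.32 TPM and 0.0892, 0.0999 and 0.252 TPM.

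Neutrophil, basophil and platelet genes were found at low levels. S100a9 and S100a8 were at 8.74, 1.96 and 17.9 TPM and 4.505, 2.31 and 12.97 TPM, and the granule genes Mpo and Ngp at 4.33, 1.13 and 2.97 TPM and 2.46, 1.004 and 9.06 TPM. The basophil proteases Prss34 and Mcpt8 were at 5.82, 4.26 and 13.4 TPM and 4.36, 2.45 and 9.77 TPM, and the platelet chemokine genes Ppbp and Pf4 at 15.1, 4.44 and 10.5 TPM and 3.13, 2.04 and 8.36 TPM. Of 8 platelet and megakaryocyte genes 2 were detected, and 4 without replicate 3. Replicate 2 was the highest library for no marker of the neutrophil list or of the basophil, mast cell and eosinophil list. Of the 12 members of each list, 6 and 8 were under 1 TPM in every library. In the latter list 2 had no count, so the order of libraries rests partly on few counts. Counted erythroid RNA was at the floor, with 1 of 10 matched members detected (Car2, at 3.88, 2.86 and 1.87 TPM). Hbb-bs, Hba-a2 and Car1 had no count. Globin genes have near copies, and fragments with several alignments were left out, so globin RNA could have been missed. Endothelial genes were split: Pecam1 at 142, 132 and 156 TPM, Kdr at 49.7, 89.6 and 19.98 TPM and Cdh5 at 29.9, 37.9 and 32.9 TPM were detected, while Vwf was at 0.69, 0.449 and 0.224 TPM and the stromal genes Col1a1, Col1a2, Col3a1, Dcn and Pdgfra were each under 1 TPM. Of 8 progenitor genes 4 were detected (5 without replicate 3), with Kit at 33.4, 30.7 and 15.5 TPM and Cd34 at 2.20, 1.02 and 4.09 TPM.

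**Figure D5:**
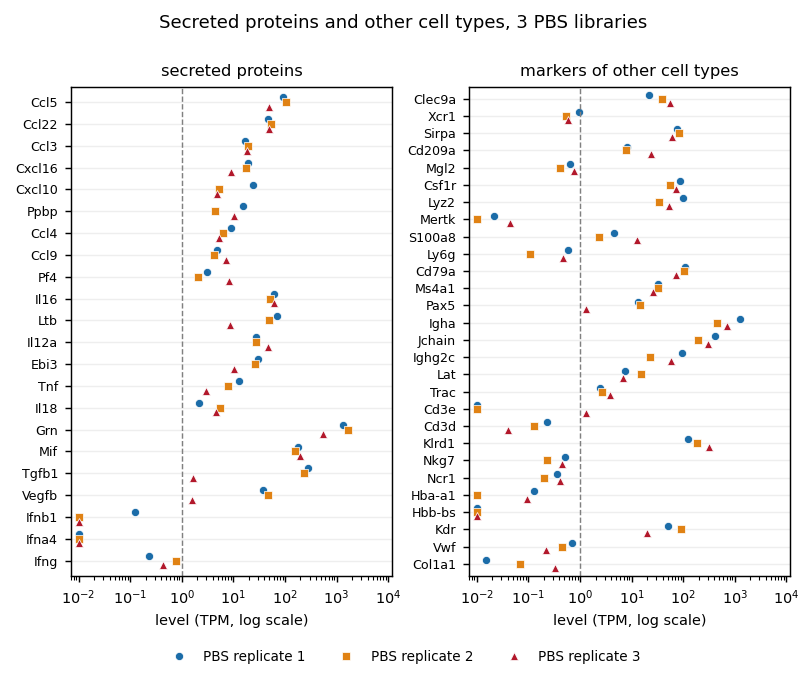
Levels (TPM, log scale) of secreted proteins (left) and of markers of other cell types (right) in each PBS library, with a dashed line at 1 TPM and values under 0.01 TPM, including 0, drawn at 0.01. Ccl5, Grn and Mif and the members Igha and Jchain of the plasma cell list are high, and interferons, CD3 chains, Ncr1, globins and Col1a1 lie at or near the floor.

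Markers of dividing cells were all detected (12 of 12). Top2a, the topoisomerase of replicating cells, was at 211, 159.5 and 290.5 TPM, Mki67 at 116, 82.5 and 82.4 TPM, Ccnb2 at 89.4, 69.4 and 156 TPM and Rrm2, the ribonucleotide reductase subunit, at 66.4, 54.3 and 69.7 TPM. Replicate 2 was the highest library for none of them, a number with no background over all genes, and medians were 65.2, 53.7 and 71.6 TPM. Which cells divided cannot be told from bulk RNA.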

How the data were processed

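Of the 9 libraries of the deposited table, the 3 labelled PBS were used. Per the submitters' processing notes, reads were processed with fastp 0.23.4, STAR 2.7.11b and featureCounts 2.0.1 on GRCm39. The deposited values are raw counts, and per the file headers counting was of paired fragments on exons (GENCODE M34), ignored strand, gave a fragment to every gene it overlapped and left out fragments with several alignments. Counts of overlapping genes and near copies are therefore uncertain.

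Counts were divided by the deposited exon length and scaled to the same sum in each library (TPM) (Python 3.11.15, numpy 2.4.6, pandas 2.3.3; TMM factors from edgeR 4.0.16 in R 4.3.3). Log2 ratios between libraries used a pseudocount of 0.1 TPM. Of 57126 genes, 51884 were matched to a symbol, and 723 of 724 entries of 42 gene lists matched (5 by older symbols, and Ahsp did not). GC content and coding sequences came from GENCODE M21 transcripts of GRCm38, matched by gene ID. The scaling was tested on simulated data. There is 1 group, so nothing was tested between groups. Lists and genes were chosen with earlier results of these data known. Named were the markers Siglech, Bst2 and Tcf4, the most abundant genes, up to 8 members of highest mean per list with absent textbook members, and the largest ratios of replicate 3. Genes beyond that rule, such as further list members, were chosen after their values were seen. Some genes are not reported here. Other thresholds, scalings and left-out libraries were tried.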

Additional observations from a re-analysis of the deposited data

How the results depend on the processing

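The number of detected genes, 12682 at 1 TPM, was 14270 at 0.5 TPM, 8886 at 5 TPM, 14173 at 10 counts or more and 11617 for genes with under 50% exonic overlap, and ran from 12908 to 15062 with 1 library left out. Nuclear protein-coding genes numbered 9565, and 9616 to 11024 with 1 library left out. The share of TPM in the 10 most abundant genes, a mean of 14.5%, was 5.35% by counts with no length, 6.88% among nuclear protein-coding genes and 12.2% for genes with under 50% overlap. For the 100 most abundant it was 35.2%, and 17.4% and 27.9% under the first 2 of these settings, and for the 1000 most abundant 64.6% and 49.2% with no length. With 1 library left out the shares ran from 13.8% to 14.9%, 33.2% to 36.7% and 62.2% to 66.2%. List medians were about 1.502 times higher on the nuclear protein-coding scale and 0.548 times as high with TMM factors, which scales them to all counts. No paired analysis was possible because the results come from no test. Low levels, under 10 counts, and genes with overlapping exons are the least certain. Median levels of genes of 55% GC or more were low in replicate 3, and the cause was not tested.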

Other observations

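Replicates 1 and 2 differed by more than 2-fold in few of the more abundant genes. Of 2496 nuclear protein-coding genes of at least 500 bases, with under 50% exonic overlap and a mean of at least 50 TPM, 17 were more than 2-fold higher in replicate 2 and 7 more than 2-fold higher in replicate 1. The 5 largest ratios toward replicate 2 belonged to Lss, which closes the sterol ring, at 33.8, 90.2 and 50.6 TPM in replicates 1, 2 and 3, Acat2, a thiolase of the cytosol, at 45.3, 109 and 89.4 TPM, the secreted Lgals3bp at 95.4, 227 and 52.2 TPM, Dhcr7, the last enzyme of cholesterol synthesis, at 55.5, 127 and 49.98 TPM and Mvd, an enzyme of the mevalonate pathway, at 83.8, 191 and 78.4 TPM. Further genes past 2-fold included Uba7, which activates Isg15, at 48.4, 106 and 26.5 TPM, the class I-like H2-T24 at 57.1, 125 and 9.41 TPM, Rnf213 at 59.2, 126 and 19.2 TPM and Ccr9.

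The 5 largest ratios toward replicate 1 belonged to Lyz2 and Jchain, whose levels are given above, to the heme oxygenase Hmox1 at 241, 87.4 and 40.6 TPM, to the thioredoxin reductase Txnrd1 at 257, 118 and 63.99 TPM and to the mitochondrial folate enzyme Mthfd2 at 75.6, 35.2 and 47.5 TPM. Outside the protein-coding class, Malat1, a nuclear noncoding RNA, was at 126, 303 and 34.9 TPM. With 1 library per replicate these differences were not tested.

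Under the same limits on length, overlap and level, the lowest log2 ratios of replicate 3 to the mean of the others were -9.07 for Hspa1a, an inducible heat shock protein, -8.92 for Vars, -8.84 for Tmem259, -8.83 for Prrc2a and -8.76 for Atxn2l. Hspa1a was at 66.04, 111 and 0.0651 TPM, and it has a near copy, Hspa1b, so its counts are uncertain. Without the limit on overlap the protein-coding gene Gm20481, whose exons all overlap another gene, was lower, at -10.91. Over all genes with a mean of at least 50 TPM the lowest ratio belonged to Mir5130, an entry of 84 bases within the exons of another gene, at 766, 571 and 0 TPM.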
